A study of Mus musculus with 9 samples.

Results

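The genes of YAP/TAZ mechanosensing were followed in osteocyte-like cells as 10 rows of the deposited count table, picked by gene name from 56748 genes. They were the coactivators Yap1 and Wwtr1 (the gene of TAZ), a DNA-binding partner of both (Tead1) and the target genes Ccn1, Ccn2 and Ankrd1. The others were the angiomotins Amotl1 and Amotl2, the kinase Lats2 and the mechanically gated channel Piezo1. No measured value was a criterion of this choice, which was made with earlier results of these data known. All 10 passed the filter on low counts, which left 13812 genes, and together they held 0.141% to 0.173% of the counts of a library.

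RNA was sequenced from MLO-Y4, a mouse osteocyte-like cell line grown on collagen and sharing a transwell with primary articular chondrocytes of C57BL/6J mice aged 5 to 6 days, so that soluble factors could pass between the cell types. All 9 libraries share this co-culture. In the control group (3 libraries) the chondrocytes were unstimulated, and in the 24 h and 48 h groups (3 libraries each) they had received 10 ng/ml interleukin-1β for 6 h before the co-culture began. The comparison asks what stimulated chondrocytes change in osteocytes. The labels give no culture time for the controls, so stimulation and time cannot be told apart, and both stimulated groups are set against the same control libraries. The labels also name the cell line of the 48 h libraries MLO-Y5, MLO-Y6 and MLO-Y7, whereas the protocols name MLO-Y4 for all samples. The libraries are not stated to be separate cultures, and p-values measure the spread between these samples, which may be technical.

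Library totals were 12250628 to 15956441 counts in control, 14440454 to 15558585 at 24 h and 16458398 to 18515456 at 48 h. Of the markers that define a mature osteocyte, Sost, Mepe, Fgf23 and Dmp1 had at most 6 counts in any library, while the osteocyte genes Pdpn and Phex averaged 212.3 and 14.6 CPM in control. Phex rose at 48 h (0.43, adjusted p = 0.0024). Of 12 osteocyte and osteoblast markers, 8 were tested at 48 h versus control. Of these 3 rose (Gja1, Phex and Pdpn) and 4 fell (Bglap, Alpl, Col1a1 and Sp7), beside 22% and 24.4% of all genes tested. The largest of these changes were those of Sp7 (-1.07, adjusted p = 0.0139), Gja1 (0.69, adjusted p = 1.14e-10) and Bglap (-0.59, adjusted p = 0.0336). Sp7 was scarce, with 22 to 32 counts in control and 14 to 21 at 48 h. CPM denotes counts set relative to TMM-scaled library sizes. Of 10 cartilage markers, the matrix genes Acan, Col9a1, Matn1 and Cnmd were at 0 in every library and Col2a1 had no more than 7 counts. The other 5 were detected, with Prg4 at 1576 CPM and Sox9 at 111.8 CPM in control and Col11a1, Matn3 and Comp at 4.02 CPM or less. At 48 h versus control Prg4, Sox9, Col11a1 and Comp rose and Matn3 fell. With 1 library left out at a time, 2 to 4 markers rose, with the count at 2 without replicate 1 or 2 of the 48 h group. The summed level of the 10, carried mostly by Prg4, lay at 1681 to 1716 CPM in control, 1567 to 1650 CPM at 24 h and 2130 to 2217 CPM at 48 h. In bulk RNA, fewer cells of a type and less RNA per cell cannot be told apart.

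YAP and TAZ are transcriptional coactivators that have no DNA-binding domain of their own and act mainly through TEAD factors. The Hippo kinases, among them LATS1 and LATS2, phosphorylate them and keep them in the cytoplasm, whereas a stiff matrix, cell spreading and actin tension favour their entry into the nucleus. In osteocytes, which sense load in bone, PIEZO1 is a known mechanical sensor, and YAP and TAZ are known regulators of bone matrix and remodelling. Activity of the pair is set largely at the protein level, and transcripts of target genes such as Ccn1, Ccn2 and Ankrd1 are commonly used as its readout.

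Levels were compared between the genes per length, as CPM per kb of the gene length in the deposited table. In control, Ccn2 stood first at 75.9 ± 4.20 CPM per kb (SD, n = 3), followed by Ccn1 at 51.4 ± 2.47 and Amotl2 at 46.9 ± 2.70. Wwtr1 at 34.0 ± 2.32 and Piezo1 at 33.6 ± 3.00 came next. Their control libraries overlapped, so these neighbours did not differ beyond their spread. Amotl1 averaged 24.1 ± 3.19, Tead1 9.64 ± 1.89, Yap1 8.22 ± 0.425, Lats2 4.78 ± 0.0852 and Ankrd1 1.20 ± 0.115 CPM per kb. Tead1 and Yap1 overlapped in control, and every other pair of neighbours was apart. Among the tested genes these control levels ranged from the percentile of 19.8 for Ankrd1 to that of 95.4 for Ccn2.

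At 48 h the order of the most abundant genes was different. Ccn2 was still first at 49.5 ± 0.957 CPM per kb, Amotl2 averaged 38.0 ± 1.75 and Wwtr1 37.5 ± 1.54, with overlapping libraries. Ccn1 stood at 22.4 ± 0.281, below every library of Amotl1 at that time, which lay between 23.9 and 27.8.

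**Figure D1:**
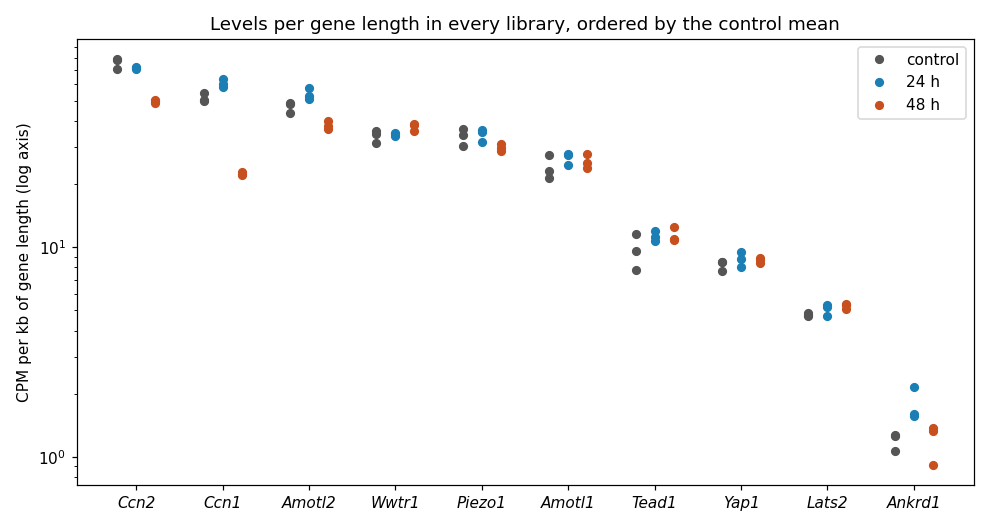
Level of each of the 10 genes in all 9 libraries, as CPM per kb of gene length on a log axis, with genes ordered by their control mean and 1 point per library. Ccn1 is the second in control, at 51.4 CPM per kb, and lies at 22.4 at 48 h, while Ankrd1 stays lowest throughout.

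A gene was called different at a Benjamini-Hochberg adjusted p under 0.05 in edgeR's quasi-likelihood test, fitted over all 13812 genes. At 48 h versus control, 1 of the 10 genes rose (Wwtr1), against 22% of all tested genes, and 4 fell (Ccn1, Ccn2, Amotl2 and Piezo1), against 24.4%. In either direction 5 of the 10 were called, against 46.4% of all genes. The median log2 fold change of the 10 was 0.04, beside -0.0022 over all genes tested. In 4 of the 10 genes the control and 48 h libraries did not overlap, against 53.1% of all genes.

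At 24 h versus control, 1 of the 10 rose (Ccn1), against 3.25% of all tested genes called higher and 6.15% called in either direction. None of the 10 was called lower, against 2.9% of all genes, with a count of 0 by edgeR, 0 by DESeq2 and 0 at an unadjusted p under 0.05 in that direction. On the higher side 4 genes had an unadjusted p under 0.05. The median of the 10 was 0.12, beside -0.0042 over all genes, and 3 of the 10 had groups without overlap, against 21.5%.

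Compared with 24 h directly, 5 of the 10 were lower at 48 h (Ccn1, Ccn2, Ankrd1, Amotl2 and Piezo1), against 25.4% of all tested genes called lower and 49.1% called in either direction. On the higher side edgeR called 0 of the 10, against 23.7%, as did DESeq2, and 1 gene had an unadjusted p under 0.05. The median was -0.13, beside -0.0017 over all genes, and 6 of the 10 had groups without overlap, against 59.4%. The joint test of the 3 groups called Ccn1, Ccn2, Ankrd1, Amotl2 and Piezo1, which is 5 of 10 against 51.9% of all genes.

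**Figure D2:**
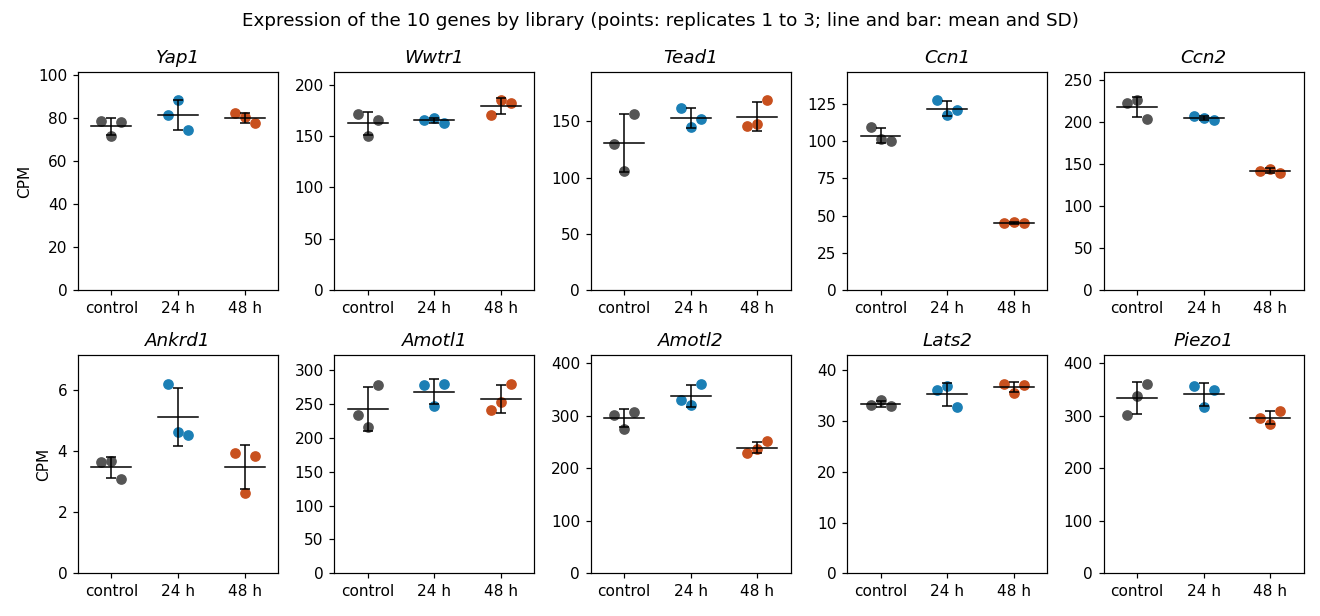
CPM of the 10 genes in each library, with 1 panel per gene, points for replicates 1 to 3 of each group, and a line and bar for the mean and SD. The 48 h points of Ccn1 lie between 44.8 and 45.8 CPM, below all points of the other groups, and Ccn2 and Amotl2 show the same separation.

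Against control, the secreted targets Ccn1 and Ccn2 had the largest called changes of the 10 genes at 48 h. Ccn1 (ENSMUSG00000028195, GRCm39 chr3:145352731-145355736, minus strand) encodes CYR61, a matricellular protein that binds integrins. It measured 109.4, 101.6 and 100.1 CPM in the control libraries, 127.5, 117.8 and 120.7 CPM at 24 h, and 45.0, 45.8 and 44.8 CPM at 48 h. All 24 h libraries were above all controls, and all 48 h libraries were below every other library.

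The mean of Ccn1 was 103.7 ± 4.98 CPM in control, 122.0 ± 4.99 at 24 h and 45.2 ± 0.567 at 48 h (SD, n = 3). At 24 h it rose by 0.23 on the log2 scale (SE 0.0554, adjusted p = 0.0144) and fell at 48 h by 1.20 on the log2 scale (SE 0.0583, adjusted p = 1.5e-11), a change of -56.4%. The direct difference between 48 h and 24 h was -1.43 (SE 0.0579, adjusted p = 1.2e-12). The rise at 24 h rested on 1 library: without replicate 1 of the 24 h group it was 0.20 with an adjusted p of 0.0992, the highest in a range of 0.00129 to 0.0992 over 17 alternatives.

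Ccn2 (ENSMUSG00000019997, GRCm39 chr10:24471340-24474581, plus strand) encodes connective tissue growth factor, a related matricellular protein that promotes matrix production. Its control libraries had 222.6, 225.3 and 203.3 CPM, those at 24 h had 206.5, 204.1 and 201.9 CPM, and those at 48 h had 142.0, 144.3 and 138.8 CPM. Control and 24 h overlapped, and the 48 h libraries were below all 6 others. The gene fell at 48 h by 0.62 on the log2 scale against control (SE 0.0511, adjusted p = 1.7e-08) and by 0.53 against 24 h (SE 0.0511, adjusted p = 1.09e-07). At 24 h versus control its log2 fold change was -0.09 with a 95% interval of -0.19 to 0.02 (adjusted p = 0.378).

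The decline of Ccn1 was the larger of the pair. The ratio of Ccn1 to Ccn2 counts was 0.451 to 0.492 in control, 0.577 to 0.617 at 24 h and 0.317 to 0.323 at 48 h. These ranges did not overlap, so the proportion of the 2 transcripts was highest at 24 h and lowest at 48 h.

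Ankrd1 (ENSMUSG00000024803, GRCm39 chr19:36089361-36097499, minus strand) encodes a nuclear and sarcomeric ankyrin repeat protein induced by stretch in muscle. It was the lowest of the 10 genes, with 41 to 93 counts per library. Control libraries had 3.64, 3.68 and 3.08 CPM, the 24 h libraries 6.21, 4.62 and 4.52 CPM, and the 48 h libraries 3.94, 2.64 and 3.84 CPM. The 24 h libraries were above all others, and control and 48 h overlapped.

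Ankrd1 did not pass the test at 24 h versus control, where its log2 fold change was 0.56 with a 95% interval of 0.13 to 0.98 (adjusted p = 0.124). At 48 h versus control the value was 0.01, with an interval of -0.43 to 0.44. It was lower at 48 h than at 24 h by -0.55 (SE 0.196, adjusted p = 0.0256). Without replicate 1 of the 24 h group this difference was -0.39 (adjusted p = 0.157), and without replicate 2 of the 48 h group it was -0.39 (adjusted p = 0.126), in a range of 0.0136 to 0.157 over 17 alternatives.

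Promoter sequence is shown for the YAP/TAZ target genes among the 10 that hold a TEAD motif (Ccn1, Ankrd1 and Amotl2), to place the motif in its context. RefSeq promoters on GRCm38.p6, read as the 250 bases before the transcript start, matched 8 of the 10 genes in 10 windows. Tead1 and Ccn2 had no entry. The motif GGAATG, the core of the TEAD binding motif, searched on both strands, was found in 6 windows of 5 genes (Yap1, Wwtr1, Ccn1, Ankrd1 and Amotl2), and 12.6% of all 32851 windows of that length held it. The AP-1 motif TGANTCA (both strands, in 6.75% of all windows) and the CArG box of SRF (1.47%) had no match in the 10 windows, so no motif overlapped another. Capitals mark GGAATG or its reverse complement CATTCC in the windows of Ccn1 (chr3:145649986-145650235, minus strand), Ankrd1 (chr19:36119845-36120094, minus strand) and Amotl2 (chr9:102717554-102717803, plus strand), each written 5′ to 3′ on the gene's strand.
Ccn1: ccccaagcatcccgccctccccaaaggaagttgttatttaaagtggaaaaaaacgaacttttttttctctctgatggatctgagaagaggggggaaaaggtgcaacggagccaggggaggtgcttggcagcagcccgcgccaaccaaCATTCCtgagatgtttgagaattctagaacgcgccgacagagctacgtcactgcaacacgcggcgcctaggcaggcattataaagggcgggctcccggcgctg
Ankrd1: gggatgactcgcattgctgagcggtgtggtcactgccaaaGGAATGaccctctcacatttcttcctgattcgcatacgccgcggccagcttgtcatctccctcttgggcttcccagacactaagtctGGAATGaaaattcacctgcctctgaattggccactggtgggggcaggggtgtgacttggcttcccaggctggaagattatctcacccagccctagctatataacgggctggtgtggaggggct
Amotl2: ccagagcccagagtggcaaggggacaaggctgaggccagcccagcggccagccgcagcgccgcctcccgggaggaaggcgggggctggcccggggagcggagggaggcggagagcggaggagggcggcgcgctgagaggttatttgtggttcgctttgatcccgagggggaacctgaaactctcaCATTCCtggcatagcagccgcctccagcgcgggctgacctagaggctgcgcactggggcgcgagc
The match lies 103 to 98 bases upstream of the start in Ccn1, at 210 to 205 and 123 to 118 bases in Ankrd1 and at 65 to 60 bases in Amotl2. It lies 141 to 136 bases upstream in Yap1 and, by the start used, 170 to 165 or 136 to 131 bases upstream in Wwtr1. At 48 h versus control, genes with a match were among those that fell (Ccn1, Amotl2), among those that did not pass (Yap1, Ankrd1) and included Wwtr1, which rose.

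The angiomotins are junctional scaffold proteins that bind YAP and hold it outside the nucleus, and Amotl2 is itself a YAP/TAZ target. Amotl2 (ENSMUSG00000032531, GRCm39 chr9:102593871-102610617, plus strand) had 302.1, 275.5 and 307.1 CPM in control, 329.6, 320.2 and 361.0 CPM at 24 h, and 229.4, 237.2 and 251.1 CPM at 48 h. The 3 groups did not overlap, with 24 h highest and 48 h lowest. Amotl2 fell at 48 h by 0.30 on the log2 scale against control (SE 0.0570, adjusted p = 0.000266) and by 0.49 against 24 h (SE 0.0568, adjusted p = 9.55e-07).

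At 24 h versus control the log2 fold change of Amotl2 was 0.19, with a 95% interval of 0.07 to 0.31, and its adjusted p of 0.0535 lay just above the threshold. It was called under DESeq2 (0.0239), with DESeq2-type RLE scaling (0.0448), without a filter (0.0036), at a minimum count of 50 (0.0475), with the gene length trend removed (0.0214), without replicate 3 of control (0.0142) and without replicate 2 of the 24 h group (0.0427), in a range of 0.0036 to 0.264 over 17 alternatives.

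Amotl1 (ENSMUSG00000013076, GRCm39 chr9:14453262-14556352, minus strand) had 232.9, 215.9 and 278.1 CPM in control, 277.5, 247.4 and 278.9 CPM at 24 h and 240.1, 252.3 and 279.7 CPM at 48 h. The groups overlapped throughout. Its log2 fold change was 0.14 at 24 h (95% interval -0.02 to 0.31, adjusted p = 0.345) and 0.09 at 48 h (-0.08 to 0.25, adjusted p = 0.385). Without replicate 3 of control it passed at 24 h (0.26, adjusted p = 0.0115) and likewise at 48 h (0.21, adjusted p = 0.0111), in ranges of 0.0115 to 0.703 and 0.0111 to 0.833. The ratio of Amotl1 to Amotl2 counts was 0.820 ± 0.0742 in control and 0.796 ± 0.0401 at 24 h, and 1.07 ± 0.0350 at 48 h, where all libraries lay above the others.

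**Figure D3:**
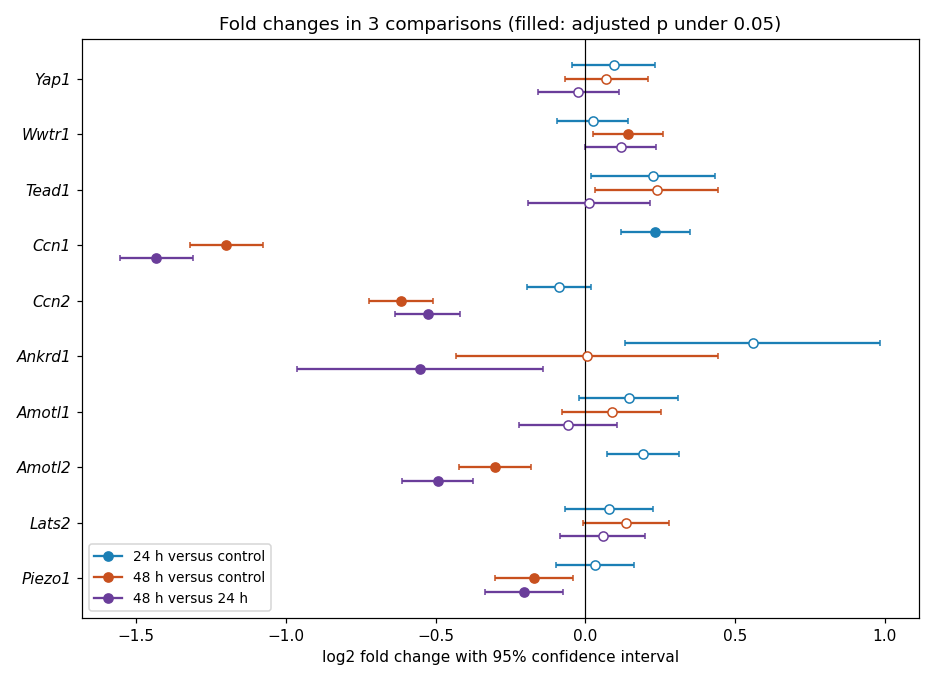
Log2 fold changes of the 10 genes with 95% confidence intervals in the 3 comparisons, where filled points have an adjusted p under 0.05 in edgeR. Ccn1 reaches -1.20 at 48 h versus control and -1.43 versus 24 h, whereas the intervals of Yap1, Amotl1 and Lats2 include 0 in every comparison.

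The transcripts of the coactivators themselves changed little. Yap1 (ENSMUSG00000053110, GRCm39 chr9:7932000-8004597, minus strand) had 78.5, 71.5 and 78.2 CPM in control, 81.2, 88.1 and 74.4 CPM at 24 h, and 82.2, 80.3 and 77.4 CPM at 48 h. The groups overlapped. Its log2 fold change was 0.09 at 24 h (95% interval -0.04 to 0.23, adjusted p = 0.492) and 0.07 at 48 h (-0.07 to 0.21, adjusted p = 0.402), so a change beyond these bounds was not seen at this depth.

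Wwtr1 (ENSMUSG00000027803, GRCm39 chr3:57363070-57483331, minus strand) had 171.7, 150.2 and 165.7 CPM in control, 165.7, 167.9 and 162.4 CPM at 24 h, and 171.0, 184.9 and 182.2 CPM at 48 h. Control and 48 h overlapped, because replicate 1 of control was above replicate 1 of the 48 h group. It rose at 48 h by 0.14 (SE 0.0558, adjusted p = 0.0464), an increase of 10.3%, and its values against control at 24 h (0.02, 95% interval -0.09 to 0.14) and between the times (0.12, 0.0002 to 0.23, adjusted p = 0.0905) did not pass. The ratio of Yap1 to Wwtr1 counts was 0.469 ± 0.0102, 0.491 ± 0.0336 and 0.447 ± 0.0299 in the 3 groups, with overlap.

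The call of Wwtr1 was marginal. It was lost without replicate 2 of control (0.10, adjusted p = 0.123), replicate 1 of the 24 h group (adjusted p = 0.0572), and replicates 2 (adjusted p = 0.165) or 3 (adjusted p = 0.117) of the 48 h group. It was also lost without a filter (0.0664) and with only the 2 groups in the fit (0.0653), in a range of 0.0166 to 0.165 over 17 alternatives. The difference between the times passed with library size only (0.0273), a minimum count of 50 (0.0371), only the 2 groups (0.0269) and without replicate 2 of control (0.0253), in a range of 0.0253 to 0.263.

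Tead1 (ENSMUSG00000055320, GRCm39 chr7:112278525-112506014, plus strand) encodes a TEAD factor through which YAP and TAZ reach DNA. It had 129.6, 105.7 and 157.0 CPM in control, 162.1, 145.4 and 151.8 CPM at 24 h, and 146.1, 148.0 and 168.8 CPM at 48 h. Control had the widest spread, and its replicate 3 lay within the other groups. The log2 fold change was 0.23 at 24 h (95% interval 0.02 to 0.43, adjusted p = 0.215) and 0.24 at 48 h (0.03 to 0.44, adjusted p = 0.0535), and neither passed. Without replicate 3 of control both were called, at 0.38 (adjusted p = 0.00251) and 0.40 (adjusted p = 0.000212), as they were without a filter (0.24, adjusted p = 0.00205, and 0.23, adjusted p = 0.0005). The 48 h value also passed with RLE scaling (0.0409), library size only (0.0372) and a minimum count of 50 (0.0361), and the adjusted p of the 2 times had ranges of 0.00205 to 0.572 and 0.000212 to 0.215.

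Gene length moved with this spread. Across the 13812 genes, deviation from the group mean had a Spearman correlation with gene length of -0.309 in replicate 2 of control and 0.31 in replicate 3, beside values between -0.167 and 0.205 in the other libraries. Tead1, of 13570 bases, and Amotl1, of 10064 bases, were lowest in the former and highest in the latter. Piezo1, of 9935 bases, was highest in replicate 3 but lowest in replicate 1 of control. Yap1, of 9257 bases, was lowest in replicate 2 but highest in replicate 1. With the length trend removed, the 48 h value of Tead1 was 0.14 (adjusted p = 0.067).

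Lats2 (ENSMUSG00000021959, GRCm39 chr14:57927119-57995845, minus strand), a Hippo kinase that phosphorylates YAP and TAZ and is also one of their targets, had 33.1, 34.0 and 32.9 CPM in control, 36.0, 36.9 and 32.7 CPM at 24 h, and 37.3, 35.5 and 37.0 CPM at 48 h. All 48 h libraries were above all controls, by little. Its log2 fold change was 0.14 at 48 h (95% interval -0.01 to 0.28, adjusted p = 0.113) and 0.08 at 24 h (-0.07 to 0.22, adjusted p = 0.601). It was called at 48 h at a minimum count of 50 (adjusted p = 0.0487), the lowest in a range of 0.0487 to 0.289. The protein-coding gene Gm49361 overlaps Lats2 on the same strand and had 0 counts, so the level of Lats2 is uncertain.

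Piezo1 (ENSMUSG00000014444, GRCm39 chr8:123208437-123278068, minus strand) encodes a channel that opens under membrane tension and lets calcium in. It had 302.5, 338.7 and 361.7 CPM in control, 357.9, 316.5 and 350.4 CPM at 24 h, and 295.9, 284.7 and 308.8 CPM at 48 h. Replicate 1 of control lay among the 48 h libraries, and all 24 h libraries were above all 48 h libraries. Piezo1 fell at 48 h by 0.17 on the log2 scale against control (SE 0.0623, adjusted p = 0.0300) and by 0.20 against 24 h (SE 0.0622, adjusted p = 0.0110), with 0.03 at 24 h versus control (95% interval -0.10 to 0.16).

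Both calls of Piezo1 rested on single libraries. Against control the call was lost without replicate 2 (adjusted p = 0.0673) or 3 (-0.10, adjusted p = 0.184) of control, without replicate 3 of the 24 h group (0.0564), and without replicate 1 (0.0712) or 2 (0.126) of the 48 h group, and also with library size only (0.0538) or a minimum count of 50 (0.0690), in a range of 0.00105 to 0.184. Against 24 h it was lost without replicate 1 (0.0620) or 3 (0.0610) of the 24 h group and without replicate 2 of the 48 h group (0.0601), in a range of 0.00012 to 0.0620. Ctu2, on the opposite strand, overlaps the end of Piezo1 and had 268 to 375 counts, beside 4142 to 5784 for Piezo1. Other genes that overlap one of the 10 had at most 28 counts in a library. The strand setting of the counting is not stated.

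**Figure D4:**
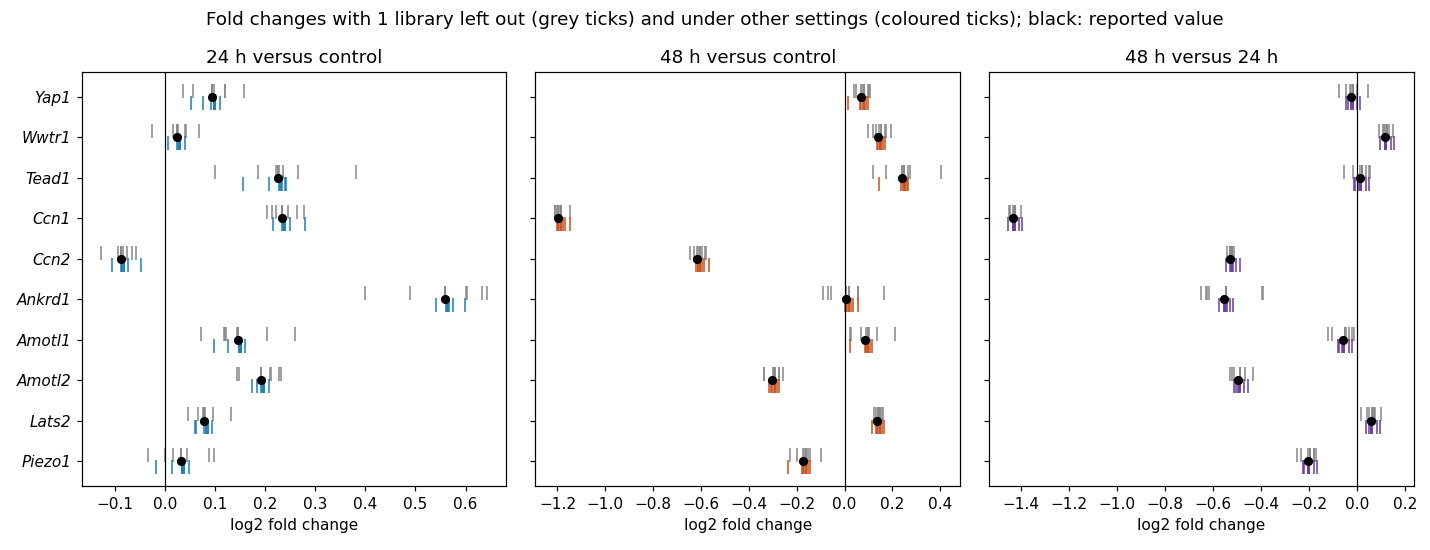
Log2 fold changes of the 10 genes in the 3 comparisons, with the reported value as a black point, values with 1 library left out as grey ticks and values under other settings as coloured ticks; the panels have different x ranges. The ticks of Ccn1 at 48 h versus control stay between -1.21 and -1.15, whereas those of Tead1 spread from 0.12 to 0.40.

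The wider pathway was described with lists of further genes. Of 25 Hippo kinases and regulators, 23 were tested. At 48 h versus control 4 rose (Map4k4, Frmd6, Fat4 and Amot) and 5 fell (Nf2, Wwc1, Fat1, Ajuba and Wtip), beside 22% and 24.4% of all tested genes, with a median log2 fold change of -0.01. Wwc1, the KIBRA scaffold that activates LATS kinases, went from 5.91 ± 0.281 CPM in control and 6.84 ± 0.602 at 24 h to 3.49 ± 0.497 at 48 h, a change of -0.76 (SE 0.163, adjusted p = 0.00085). Amot, the founding angiomotin, moved the other way at 48 h, from 73.2 ± 12.9 to 92.8 ± 6.01 CPM (0.34, SE 0.0895, adjusted p = 0.00453), as did the large cadherin Fat4 (0.54, SE 0.123, adjusted p = 0.00132). Lats1, the partner kinase of Lats2, had log2 fold changes of 0.15 at 24 h (95% interval -0.02 to 0.31) and 0.02 at 48 h (-0.14 to 0.18) and was not called.

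At 24 h Fat4 (0.44, adjusted p = 0.0432) and the kinase gene Map4k4 (0.21, adjusted p = 0.0256) rose. They were 2 of the 23, beside 3.25% of all tested genes, and the median of the 23 was 0.09. This count was 0 without replicate 1 or 2 of control or replicate 1 or 3 of the 24 h group, 1 without replicate 2 of the 24 h or 48 h group, and 6 without replicate 3 of control. The 5 that fell at 48 h were 2 with DESeq2 and between 1 and 3 without replicate 1 or 3 of control, 2 or 3 of the 24 h group, or 1 or 2 of the 48 h group.

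Among 7 TEAD and VGLL factors, 4 were tested. Tead3 rose at 48 h from 19.0 ± 1.44 to 30.4 ± 2.60 CPM (0.68, SE 0.0919, adjusted p = 7.22e-06), with no overlap of libraries, and lay at 23.0 ± 2.08 CPM at 24 h (0.28, 95% interval 0.08 to 0.48, adjusted p = 0.0992). Vgll3, a TEAD-binding cofactor, rose at 24 h from 52.5 ± 2.79 to 66.8 ± 2.84 CPM (0.35, SE 0.0620, adjusted p = 0.00137) and was lower at 48 h than at 24 h (-0.22, adjusted p = 0.00593). Tead4 had 34.8 ± 1.07, 30.3 ± 0.577 and 34.8 ± 1.57 CPM in the 3 groups and was higher at 48 h than at 24 h (0.20, adjusted p = 0.0181). Tead2 had 1 to 9 counts per library and was not tested. Per length, Tead1 and Tead4 had overlapping control levels, 9.64 and 9.66 CPM per kb, with Tead3 at 2.83.

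Of 17 other YAP/TAZ target genes, 15 were tested, and at 48 h versus control 6 rose and 3 fell, beside 22% and 24.4% of all genes, with a median of 0.10. The 6 were Crim1, Gadd45a, Ccdc80, Nt5e, Dock5 and Tgfb2, and the 3 were the receptor kinase Axl, tissue factor F3 and Nuak2. Ccn1 and Ccn2 thus moved with some listed targets and against others. Tgfb2, which encodes a TGF-beta ligand, had 10.7 ± 0.915 CPM in control, fell to 7.06 ± 0.557 at 24 h (-0.61, SE 0.111, adjusted p = 0.00172) and rose to 28.8 ± 0.783 at 48 h (1.42, SE 0.0937, adjusted p = 8.66e-10). Gadd45a, a stress and DNA damage gene, rose at 48 h from 20.3 ± 2.60 to 47.2 ± 2.22 CPM (1.21, adjusted p = 5.38e-09), and the matrix gene Ccdc80 rose from 8.57 ± 0.858 to 19.0 ± 1.36 CPM (1.16, adjusted p = 4.68e-07).

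At 24 h 2 of the 15 rose and 1 fell (Tgfb2), beside 3.25% and 2.9% of all tested genes. Nt5e, the ecto-enzyme CD73 that forms adenosine, rose from 61.0 ± 3.01 to 112.5 ± 4.27 CPM (0.88, SE 0.0586, adjusted p = 1.44e-08) and stood at 74.4 ± 2.60 CPM at 48 h. Myof rose by 0.19 (adjusted p = 0.0307). This count of 2 was 1 without replicate 1 or 2 of control, replicate 1 or 3 of the 24 h group, or replicate 2 of the 48 h group, and 4 without replicate 3 of control. Ptpn14, a phosphatase that binds YAP, was lower at 48 h than at 24 h (-0.27, SE 0.0830, adjusted p = 0.0127) and did not pass against control (-0.19, 95% interval -0.37 to -0.02).

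The other members of the CCN family gave a different picture from Ccn1 and Ccn2. All 4 were tested. At 24 h versus control 2 fell and 0 rose, beside 2.9% and 3.25% of all tested genes. At 48 h versus control 2 rose and 0 fell, beside 22% and 24.4%. Ccn5, which lacks the C-terminal domain of its relatives, had 409.4 ± 24.4 CPM in control, fell to 252.9 ± 15.7 at 24 h (-0.69, SE 0.0540, adjusted p = 1.22e-07) and rose to 548.9 ± 15.0 at 48 h (0.42, SE 0.0531, adjusted p = 3.12e-06). Ccn3, the NOV gene, had 17.0 ± 2.64, 9.37 ± 1.17 and 22.9 ± 2.15 CPM, which was lower at 24 h (-0.87, adjusted p = 0.000209) and higher at 48 h (0.42, adjusted p = 0.00564). Ccn1 was called in the opposite direction at both times. Ccn4 and Ccn6 did not pass in either comparison with control.

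**Figure D5:**
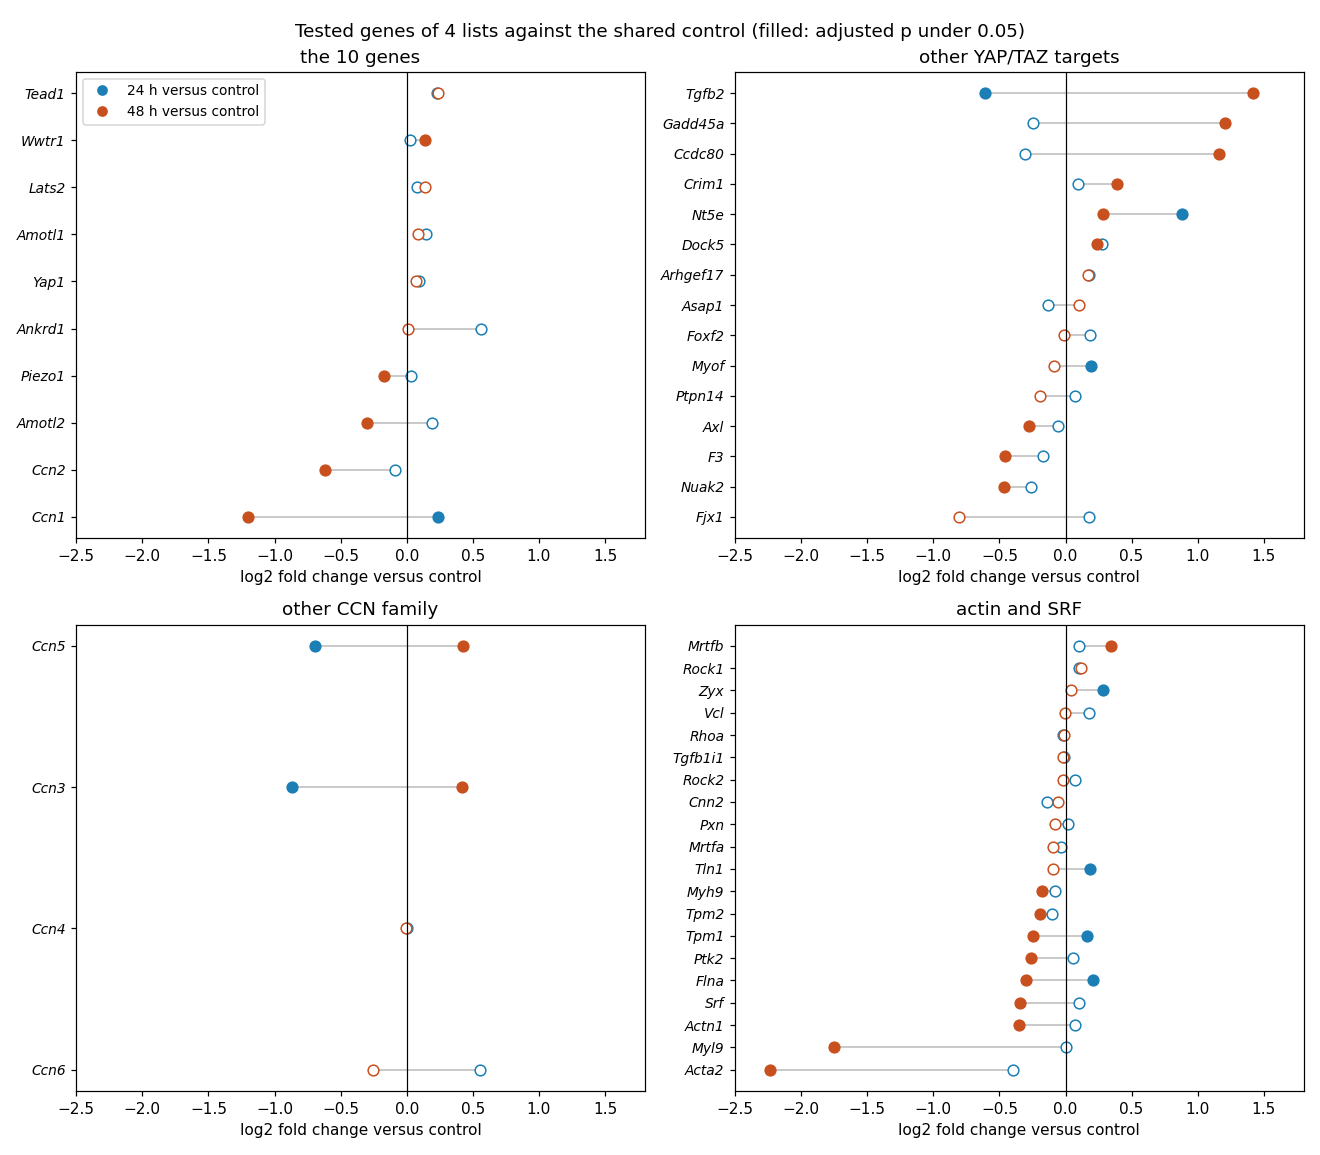
Log2 fold changes of the tested genes of 4 lists at 24 h and at 48 h against the same control libraries, with filled points for an adjusted p under 0.05 and a grey line joining the 2 values of a gene. Ccn1 lies at 0.23 and -1.20, Ccn5 at -0.69 and 0.42, and 9 of the 20 actin and SRF genes are filled below 0 at 48 h.

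Among the 11 other mechanosensitive channels, all tested, 3 rose at 48 h versus control (Pkd2, Tmem63a and Gja1) and 1 fell (Tmem63b), beside 22% and 24.4% of all genes, with a median of -0.03. Gja1, the connexin 43 gene whose hemichannels open under load in osteocytes, rose from 1498 ± 81.3 to 2413 ± 24.0 CPM (0.69, SE 0.0392, adjusted p = 1.14e-10). Tmem63b fell by 0.26 on the log2 scale (SE 0.0659, adjusted p = 0.00364). Piezo2, the relative of Piezo1 known from touch neurons, had only 12 to 22 counts per library and a 48 h value of -0.52 with a 95% interval of -1.24 to 0.20. At 24 h edgeR called 0 of the 11, against 6.15% of all tested genes in either direction. DESeq2 also called 0 of the 11, and 2 had an unadjusted p under 0.05. Without replicate 3 of control, the 3 that rose at 48 h were 5 and the 1 that fell was 2.

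YAP/TAZ respond to actin tension, and SRF shares several of their targets. Of 22 actin, contractility and SRF genes, 20 were tested. At 48 h versus control 9 fell (Srf, Acta2, Myl9, Myh9, Tpm1, Tpm2, Actn1, Flna and Ptk2) and 1 rose (Mrtfb), beside 24.4% lower and 22% higher over all tested genes, with a median of -0.09. Acta2, smooth muscle actin, was scarce, with 26 to 34 counts in control and 7 to 9 at 48 h (-2.24, SE 0.359, adjusted p = 5.22e-05). The myosin light chain Myl9 went from 4.48 ± 0.516 to 1.31 ± 0.297 CPM (-1.75, SE 0.220, adjusted p = 3.11e-06), and the abundant crosslinker Actn1 from 358.7 ± 10.2 to 281.3 ± 1.37 CPM (-0.35, SE 0.0433, adjusted p = 2.61e-06).

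At 24 h 4 of these 20 rose, beside 3.25% of all tested genes. Among them were the focal adhesion gene Zyx (0.28, adjusted p = 0.0035), Flna (0.20, adjusted p = 0.0276) and Tln1 (0.18, adjusted p = 0.0441). The count of 4 was 1 without replicate 1 of control or replicate 1 or 3 of the 24 h group, and 2 without replicate 3 of the 48 h group.

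Ccn2 is also a classic TGF-beta response gene, so 10 other genes of that response were set beside it. All were tested, and at 48 h versus control 4 rose and 5 fell, beside 22% and 24.4% of all genes. Those that rose were Pmepa1, Tgfbi and the receptor genes Tgfbr1 and Tgfbr2, with log2 fold changes of 0.42 (Tgfbr1) to 0.71 (Pmepa1). Ltbp2, a matrix binding protein, rose from 55.5 ± 4.05 to 90.4 ± 8.85 CPM at 24 h (0.71, adjusted p = 4.7e-06) and fell to 11.7 ± 0.381 at 48 h (-2.24, adjusted p = 1.19e-12). The feedback inhibitor Smad7 fell at 48 h by 1.26 on the log2 scale (adjusted p = 3.64e-09). Ccn1 and Ltbp2 were each called higher at 24 h and lower at 48 h.

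All 8 proliferation genes fell at 48 h versus control, beside 24.4% of all genes, with a median of -0.48, led by Rrm2 (335.5 ± 7.61 to 169.2 ± 4.83 CPM, -0.99, adjusted p = 6.82e-12), Ccnb1 (-0.82, adjusted p = 2.21e-10) and Cdk1 (-0.61, adjusted p = 1.17e-08). With 1 library left out at a time, 6 to 7 of these genes were called lower. Their summed level was 3458 to 3742 CPM in control, 3757 to 3769 at 24 h and 2613 to 2649 at 48 h. It moved with the fall of Ccn1 and Ccn2, and its part in that fall was not tested.

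Genes whose log2 CPM over the 9 libraries was most like that of the targets were sought among 10080 protein-coding genes. For Ccn1 they were Psme3, Wbp11 and Fxyd5, with Pearson r of 0.997 each, and for Ccn2 they were Gars, Gcsh and Oaf, with r of 0.995 each. For Ankrd1 the nearest were Entpd7 (0.940), Steap1 (0.877) and Blcap (0.867). The 9 points share 3 group means, so r describes mostly the differences between groups.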

How the data were processed

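Directional libraries were sequenced, and, per the labels and the paper, trimmed reads were mapped to GRCm39 by HISAT2 and assigned to genes by featureCounts. The authors deposited 1 table of raw counts, which holds whole numbers for 56748 genes in 9 libraries. The labels and the paper give different featureCounts versions and sequencers, also name RSEM, and do not state strand or multi-mapping settings, so counts of overlapping genes are uncertain. Columns of gene length and position in that table were used as given.

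Tests were run in R 4.3.3 with edgeR 4.0.16. The filter was filterByExpr with a minimum count of 10 (13812 genes, 99.9% of counts) and scaling was by TMM. A single quasi-likelihood model of group covered the 9 libraries, leaving 6 residual degrees of freedom, and adjusted p-values are Benjamini-Hochberg values over all genes tested. DESeq2 1.42.0, other scalings, filters and thresholds, a replicate block, and fits without each library were alternatives. The fit was also run on simulated counts in which few genes changed, each by more than most of the 10 did. That run does not cover small or marginal calls. Intervals are at 95% and cover the spread between libraries. CPM are relative to TMM-scaled totals of 12250628 to 18515456 counts.

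The 10 genes and the further lists were assembled from general knowledge, with earlier results of these data known. The text names all 10 and the closest relatives Lats1, Tead2, Tead3, Tead4, Amot, Ptpn14 and Piezo2. It gives at most 3 called genes per list and comparison by absolute fold change. It also names the 3 genes most like Ccn1, Ccn2 and Ankrd1 among those with a mean of at least 5 CPM. Of the overlapping genes it names Ctu2 and Gm49361. Other called genes of a list are named without values. Cartilage and osteocyte markers, and the genes of the TGF-beta list that rose, were named after their values were seen. Replicate numbers were checked for pairing and did not pair the libraries.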

Additional observations from a re-analysis of the deposited data

Results flagged for a closer look

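For 5 of the 10 genes the change from control differed between 24 h and 48 h, as tested directly by 48 h versus 24 h in edgeR, beside 49.1% of all tested genes. Both times share the control libraries, which cancel from the estimate of this difference but enter the shared spread of its test. The log2 difference was -1.43 for Ccn1 (adjusted p = 1.2e-12), -0.53 for Ccn2 (adjusted p = 1.09e-07), -0.49 for Amotl2 (adjusted p = 9.55e-07), -0.55 for Ankrd1 (adjusted p = 0.0256) and -0.20 for Piezo1 (adjusted p = 0.0110). Every library at 48 h was below every library at 24 h for each of these 5 genes, which were picked by their call in this same comparison. Of all 10 genes, 6 had groups without overlap, against 59.4% of all genes tested. Ccn1 was called on both sides of control, higher at 24 h and lower at 48 h. Ankrd1 and Piezo1 lost their call without replicate 1 of the 24 h group (adjusted p = 0.157 and 0.0620) and without replicate 2 of the 48 h group (adjusted p = 0.126 and 0.0601), and Piezo1 also without replicate 3 of the 24 h group (0.0610), in ranges of 0.0136 to 0.157 and 0.00012 to 0.0620 over 17 alternatives each.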

How the results depend on the processing

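Ccn1, Ccn2 and Amotl2 kept their fall at 48 h against control and against 24 h in every refit, and only a required absolute log2 fold change of 0.5 removed Amotl2. Of the 10 genes, the count higher at 24 h was 2 under DESeq2, RLE scaling, a minimum count of 50 and removal of the gene length trend (an alternative chosen after seeing the data), 3 without a filter, and 0 at an adjusted p under 0.01 or with the fold requirement. The count higher at 48 h versus control was 2 with RLE scaling or library size only, 3 at a minimum count of 50, and 0 with only the 2 groups compared, at 0.01 or with the fold requirement. The count higher at 48 h versus 24 h was 1 with library size only, a minimum count of 50 or only the 2 groups. Genes lower at 48 h numbered 2 against control with the fold requirement, and 3 against 24 h with it or at 0.01, where the joint test also called 3. Over all genes at 24 h versus control, 759 were higher without a filter, 259 at 0.01 and 154 with the fold requirement, and 254 were lower with only the 2 groups, 205 at 0.01 and 96 with the fold requirement. With that requirement 1418 were higher and 1059 lower at 48 h versus control, and 1639 and 1231 versus 24 h. Leaving out 1 library at a time gave 0 to 3 of the 10 genes higher and 3 to 4 lower at 48 h, 0 to 4 higher at 24 h, 0 to 1 higher and 3 to 5 lower at 48 h versus 24 h, and 3 to 8 in the joint test, with 295 to 873 genes higher and 222 to 602 lower over all genes at 24 h. The cause of these shifts was not tested.

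Uncalled values near 0 changed sign. Yap1 at 48 h versus 24 h was 0.0151 with library size only and 0.0021 at a minimum count of 50, and ranged from -0.0748 to 0.0474 with 1 library left out. Tead1 in that comparison was -0.0074 without a filter and -0.0123 with the length trend removed, and ranged from -0.0545 to 0.0552. Piezo1 at 24 h was -0.0184 with the length trend removed and ranged from -0.0333 to 0.0982, Wwtr1 at 24 h ranged from -0.0262 to 0.0685, and Ankrd1 at 48 h versus control ranged from -0.092 to 0.1642.

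The replicate numbers did not pair the libraries, since deviations of same-numbered libraries correlated between -0.049 and 0.077 over 9 pairs and 4 of 9 libraries correlated best with their own number. With the replicate number as a block, 2 of the 10 genes were higher at 24 h, with Amotl2 passing (adjusted p = 0.0185), and at 48 h versus control Tead1 passed (0.0112) and Wwtr1 did not (0.051). Depth limits mainly Ankrd1, at 41 to 93 counts per library.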
